A study of Mus musculus with 11 samples.

Results

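The pancreas of 30-day-old female Balb/C mice whose mothers ate a low protein diet in pregnancy was compared with that of offspring of mothers on a control diet, both after sham injection. The comparison used 6 of the 11 arrays of the study, 3 labelled low protein diet and sham injected and 3 labelled control diet and sham injected, chosen by these labels alone. The low protein diet held 8% protein and the control diet 20%, with equal calories, and every dam ate the control diet from birth onward. Sham offspring received the citrate buffer vehicle on days 1 to 5 after birth. The other 5 arrays came from offspring given 35 mg/kg of streptozotocin (STZ), a toxin taken up by beta cells, on the same days (2 control diet arrays and 3 low protein arrays). The labels call the replicates biological but do not name the dam or litter, so the maternal diet and differences between litters cannot be told apart. Each array measured RNA of whole pancreas, in which fewer cells of a type and less RNA per cell cannot be told apart. Signals are log2 values per probe set, so a difference of 1 is a factor of 2.

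The pancreas is mostly exocrine tissue: acinar cells make digestive proenzymes and pack them into zymogen granules, and ducts carry them to the gut. The islets scattered in it hold beta cells, which secrete insulin and amylin, alpha cells, which secrete glucagon, delta cells, which secrete somatostatin, and PP cells, which secrete pancreatic polypeptide. In rodents, protein restriction of the mother in pregnancy is a widely used model of poor fetal nutrition, known for smaller islets and less insulin in the offspring.

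Of the array's 45101 probe sets, 34958 carried a single gene symbol, and 15897 genes were tested, each by its brightest probe set. No gene passed a Benjamini-Hochberg adjusted p under 0.05 in limma, 0.0% of those tested, and the smallest adjusted p was 0.206. At an unadjusted p under 0.05, 508 genes were higher on low protein (3.2%) and 1147 were lower (7.22%), so that 30.7% of these were higher. With cyclic loess scaling 47.5% were higher (734 of 1546), and adding the hybridisation controls to the model as a covariate 47.7% (580 of 1216). Cyclic loess evens the arrays along the signal range, which itself draws such a share towards an even split. The 3 low protein arrays all lay above the 3 controls for 886 genes (5.57%) and all below them for 1615 (10.2%). These shares are the background for the counts below, and none of the differences below passed the adjusted threshold. An exact permutation test of 3 arrays against 3 cannot give a p below 0.1. The 6 arrays had medians of 7.92 to 7.97 and correlated at 0.9855 to 0.9946 within a diet and 0.9875 to 0.9913 between diets. Acinar markers stood at the top of the range and islet hormones were bright, while the adipocyte marker Adipoq, the red cell marker Hba-a1, the intestinal marker Fabp2 and the muscle marker Acta1 lay below the lower limit for testing of 6.866.

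The promoter sequences of 3 islet hormone genes are shown first, those with a listed promoter among the 4 whose arrays did not overlap, since transcription factors of the homeodomain class that act in islets, such as Pdx1, are known to bind sites with a TAAT core. Each is the 250 bases before the listed start of the gene on its own strand, from RefSeq on build GRCm38.p6, and capitals mark TAAT on either strand. Iapp lies at chr6:142298175-142298424 on the plus strand, Gcg at chr2:62483654-62483903 on the minus strand and Sst at chr16:23890845-23891094 on the minus strand.
Iapp: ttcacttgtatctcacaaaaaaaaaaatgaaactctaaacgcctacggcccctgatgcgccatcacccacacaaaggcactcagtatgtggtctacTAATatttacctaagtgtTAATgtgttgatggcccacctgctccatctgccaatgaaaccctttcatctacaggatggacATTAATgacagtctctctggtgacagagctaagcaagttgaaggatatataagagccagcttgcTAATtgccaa
Gcg: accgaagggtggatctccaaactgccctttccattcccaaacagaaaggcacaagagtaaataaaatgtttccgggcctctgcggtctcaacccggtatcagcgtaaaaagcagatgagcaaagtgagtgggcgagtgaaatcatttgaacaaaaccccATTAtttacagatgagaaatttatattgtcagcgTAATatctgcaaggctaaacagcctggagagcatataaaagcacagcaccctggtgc
Sst: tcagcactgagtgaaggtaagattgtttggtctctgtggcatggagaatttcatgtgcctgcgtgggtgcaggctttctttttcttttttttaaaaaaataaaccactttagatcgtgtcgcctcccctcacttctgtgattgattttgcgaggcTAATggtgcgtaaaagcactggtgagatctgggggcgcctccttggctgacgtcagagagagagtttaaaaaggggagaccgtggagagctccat
The core occurred 5 times in the Iapp stretch, 2 times in that of Gcg and 1 time in that of Sst. Of the 6 hormone genes with a listed promoter these 3 held it, against 42.3% of 12674 promoters of genes tested. These matches describe letters and not bound sites.

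The hormone transcripts of the islet were lower in the low protein pancreas. All 7 hormone genes tested had a negative difference, with a median of -0.86 against -0.02 over all genes, and 4 of the 7 were lower at an unadjusted p under 0.05 and without overlap. Those 4 were Iapp, Ins2, Gcg and Sst, products of beta, alpha and delta cells.

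Iapp encodes amylin, which beta cells co-secrete with insulin. Its log2 signals were 14.32, 14.85 and 14.27 in control pancreas and 13.69, 12.72 and 12.04 in low protein pancreas. All low protein arrays lay below all controls, by 1.66 ± 0.34 (SE) in the mean, a factor of 3.17 (adjusted p = 0.209). Its 4 probe sets gave differences of -1.56 to -1.91.

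Ins2 encodes 1 of the 2 mouse insulins. It read 14.81, 15.24 and 14.86 in controls and 14.47, 13.91 and 13.27 on low protein, again without overlap. The mean difference was -1.09 ± 0.28, or 2.12-fold lower (adjusted p = 0.212). No further probe set was named for Ins2, and the probe set used is of a kind that can match more than 1 transcript.

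Gcg encodes proglucagon of alpha cells and read 13.90, 14.41 and 13.87 in controls against 13.65, 12.34 and 11.48 on low protein. The groups did not overlap, but low protein array 1 lay close to the lowest control while array 3 was far below it. The difference was -1.57 ± 0.41 (adjusted p = 0.213).

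Sst, the somatostatin of delta cells, read 10.16, 10.75 and 10.10 in controls and 10.02, 9.34 and 9.06 on low protein, a difference of -0.86 ± 0.23 (adjusted p = 0.214). Low protein array 1 again stood just under the controls. Pyy, which encodes peptide YY, read 10.20, 11.03 and 10.18 against 10.74, 9.68 and 9.56, and Ppy, which encodes pancreatic polypeptide, 8.78, 9.51 and 8.84 against 9.26, 8.61 and 8.40. Both overlapped between the diets, with differences of -0.48 ± 0.30 for Pyy and -0.29 ± 0.23 for Ppy.

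In Ins2, Iapp, Gcg, Sst, Pyy and Ppy alike, control array 2 was the brightest control, low protein array 1 the brightest of its group and low protein array 3 the dimmest. The median deviation of the 7 hormones from the control mean was -0.16, 0.37 and -0.20 in the controls and -0.31, -0.99 and -1.27 on low protein. Without low protein array 3 the median difference of the hormones was -0.65, and without low protein array 1 it was -1.13.

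**Figure D1:**
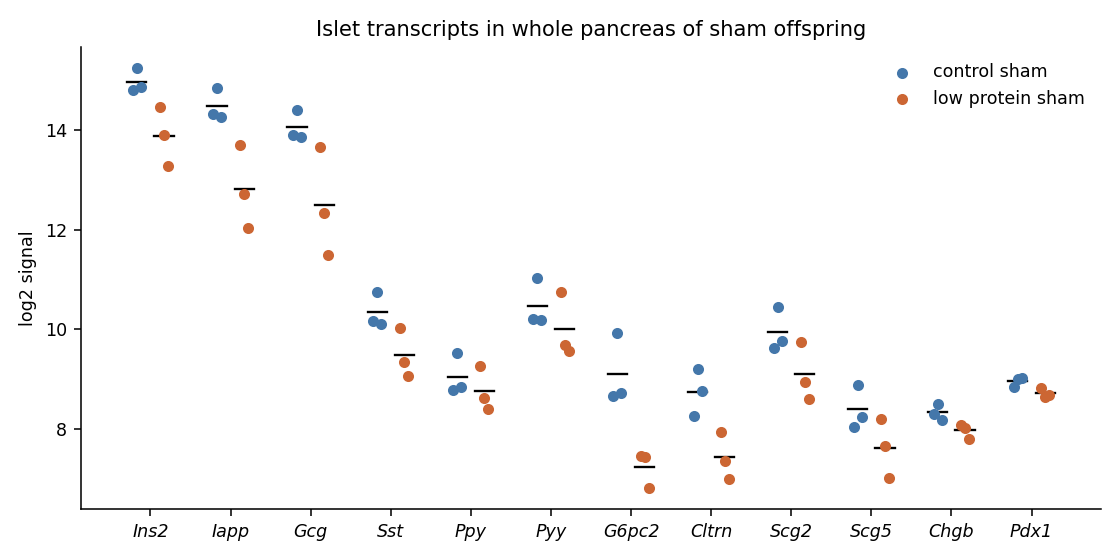
Log2 signal of 12 islet genes on the 3 control sham arrays (blue) and the 3 low protein sham arrays (orange), with a black bar at each group mean. Iapp, Ins2, Gcg, G6pc2 and Cltrn show separate groups, with Iapp at 14.27 to 14.85 in controls and 12.04 to 13.69 on low protein, while Pyy, Ppy and Scg2 overlap.

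Among genes of glucose uptake and sensing in beta cells, a few islet transcripts were much lower while the list as a whole was not. Of 12 genes tested, 3 were lower and 1 higher at an unadjusted p under 0.05, and the median was -0.04. G6pc2 encodes the islet glucose-6-phosphatase that opposes glucokinase. It read 8.66, 9.93 and 8.72 in controls and 7.45, 7.42 and 6.80 on low protein, with no overlap and with control array 2 well above the other two. Low protein array 3 lay below the lower limit of 6.866 and the other two not far above it, so that the size of the difference, -1.88 ± 0.29 (adjusted p = 0.206), is uncertain. Without control array 2 it was -1.47 and had an adjusted p of 0.0438.

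Cltrn encodes collectrin, a membrane protein known in beta cells, and read 8.26, 9.19 and 8.76 against 7.94, 7.34 and 6.98. The groups were apart, by -1.32 ± 0.25 (adjusted p = 0.206). Trpm5, a cation channel of beta cells, differed by -0.25, and Gipr, the receptor of the incretin GIP, by +0.17. Slc2a2, the GLUT2 glucose transporter, was too dim for the test, at 6.92 ± 0.34 (SD, n = 3) in controls and 6.16 ± 0.27 (SD, n = 3) on low protein.

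Granins and prohormone processing proteins, which form and fill hormone granules, showed negative differences that overlapped more. Of 12 tested, 6 were lower at an unadjusted p under 0.05, but Chgb alone had no overlap, and the median was -0.26. Chgb, chromogranin B, read 8.30, 8.49 and 8.18 against 8.08, 8.01 and 7.80, a difference of -0.36 ± 0.10 (adjusted p = 0.224). Scg2, secretogranin II, read 9.61, 10.44 and 9.76 against 9.74, 8.94 and 8.60. Here low protein array 1 lay among the controls and the other two below them, and the difference was -0.84 ± 0.27 (adjusted p = 0.292). Cpe, the carboxypeptidase that trims prohormones, differed by -0.81 ± 0.25 and Scg5, the chaperone of prohormone convertase 2, by -0.77 ± 0.29, both with overlap. Chga and Scg3 differed by -0.53 and -0.31. Of 17 genes of granule docking and exocytosis, 1 was lower at an unadjusted p under 0.05, Sytl4 at -0.25, and the median was -0.04.

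Islet transcription factors were near the level of all genes, with a median of -0.02 over 19 tested. Pdx1, the factor that maintains beta cells and drives insulin transcription, read 8.83, 9.0 and 9.01 against 8.82, 8.63 and 8.67. Its groups were apart by 0.01 at the nearest arrays, and the mean difference was -0.24 ± 0.09 (adjusted p = 0.351). Irx1, a factor of alpha cells, was higher by 0.32 ± 0.12 (adjusted p = 0.367). Nkx6-1, a factor of beta cells, read 8.18, 8.24 and 8.30 against 8.27, 8.36 and 8.38, a difference of +0.10 ± 0.10. Ttr, transthyretin, listed here as a liver marker and also known in alpha cells, differed by -0.80 with overlap.

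The acinar digestive enzymes were also lower on low protein in the deposited values, and this direction turned with the scaling of the arrays. All 18 enzymes tested were lower at an unadjusted p under 0.05 and without overlap, with differences of -0.36 (Ctrl) to -0.75 (Prss3) and a median of -0.44. After cyclic loess scaling, which evens the arrays along the signal range, the median was +0.18, 16 of the 18 were above 0 and none had an unadjusted p under 0.05. The share of genes lower at p under 0.05 was 7.22% over all genes but 24.4% in the brightest of 10 equal classes of signal, to which these enzymes belong.

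Cpa1, the proenzyme of carboxypeptidase A, read 15.79, 15.81 and 15.73 in controls and 15.40, 15.38 and 15.36 on low protein. The 3 arrays of a diet lay within 0.1 of each other and the diets were apart by -0.39 ± 0.10 (adjusted p = 0.214). Its controls stood close to the highest signal on any of these arrays, 15.90, as did those of most enzymes, and differences so near the top of the range may be compressed, which was not tested. Prss3, a trypsinogen, read 15.30, 15.21 and 15.16 against 14.53, 14.53 and 14.34, a difference of -0.75 ± 0.16 (adjusted p = 0.209), and -0.20 after cyclic loess. Amy1, an amylase that is less bright, read 13.14, 13.11 and 13.09 against 12.54, 12.62 and 12.66, a difference of -0.51 ± 0.12, and -0.17 after cyclic loess. The amylase named as an acinar marker, Amy2a5, had no probe set with a single symbol and was not measured. Prss3 and Amy1 were the 2 enzymes that stayed below 0 under that scaling.

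The extreme upper end of the signal range differed between the diets. The number of probe sets above a log2 signal of 15 was 61, 56 and 57 in controls and 43, 38 and 39 on low protein, and the 99th percentile was 12.83, 12.6 and 12.76 against 12.46, 12.32 and 12.35. The 90th percentile overlapped, at 9.9, 9.77 and 9.86 in controls and 9.76, 9.75 and 9.78 on low protein. The highest signal of each of the 6 arrays was 15.87 to 15.90. In the brightest class of genes, at 10.39 to 15.89, the median difference was -0.17, with 76.9% of genes lower and 29.9% lower without overlap. The median deviation of that class from the control mean was 0.07, -0.10 and 0.03 in controls and -0.14, -0.20 and -0.14 on low protein. Control array 2 thus lay nearest to the low protein arrays. In the dimmest class the median difference was +0.01. After cyclic loess scaling the brightest class had a median of +0.01, and with the signal of the hybridisation controls as a covariate -0.11. Cyclic loess evens the arrays along the signal range, so a class median near 0 is set by the method. It would also take out a difference shared by most bright genes, whatever its source. These controls, bacterial and phage transcripts spiked in before hybridisation, read 11.34, 11.76 and 11.89 in controls and 11.20, 11.20 and 11.50 on low protein. Their part in the differences of bright genes was not tested beyond that fit.

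**Figure D2:**
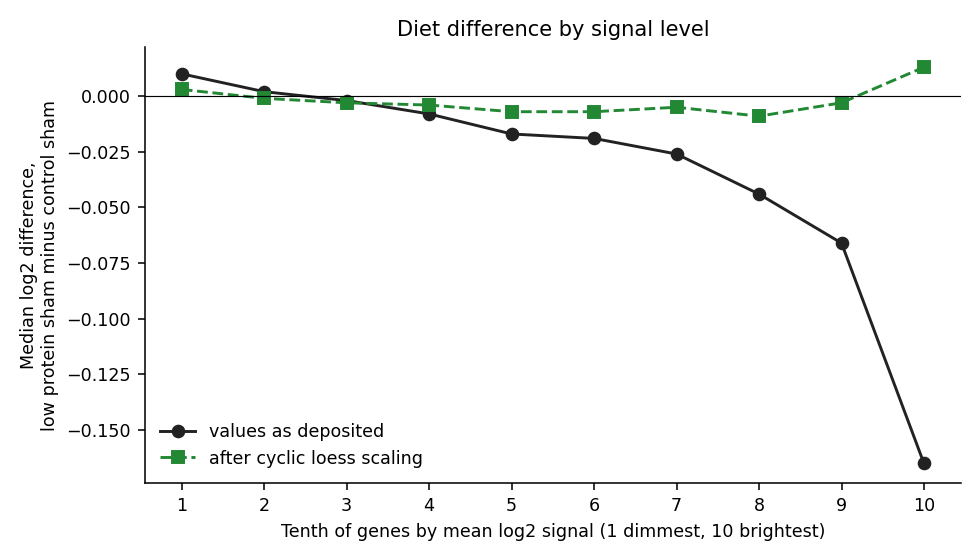
Median log2 difference, low protein sham minus control sham, of genes in 10 classes of mean log2 signal, as deposited (circles) and after cyclic loess scaling (squares). The deposited values run from +0.01 in the dimmest class to -0.17 in the brightest. The scaled ones stay between -0.01 and +0.01, which the method itself brings about.

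Promoters of 2 acinar enzymes are shown because acinar genes are known to share sites for the PTF1 complex, made of Ptf1a with its partners, which binds an E-box, CANNTG, next to a box with the letters TGGGAA. They are those with the smallest p among enzyme genes that held both anywhere in the 250 bases and had a single listed start. The choice was made after their values were seen. In neither printed stretch does a CANNTG lie next to TGGGAA, and such matches describe letters and not bound sites. Capitals mark TGGGAA. Prss2 lies at chr6:41521526-41521775 on the plus strand and Cela2a at chr4:141826006-141826255 on the minus strand of GRCm38.p6, from RefSeq.
Prss2: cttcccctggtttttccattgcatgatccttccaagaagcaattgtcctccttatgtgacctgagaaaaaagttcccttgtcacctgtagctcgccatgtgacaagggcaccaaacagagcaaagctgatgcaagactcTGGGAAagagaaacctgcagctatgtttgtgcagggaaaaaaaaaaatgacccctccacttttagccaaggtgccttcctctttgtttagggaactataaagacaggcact
Cela2a: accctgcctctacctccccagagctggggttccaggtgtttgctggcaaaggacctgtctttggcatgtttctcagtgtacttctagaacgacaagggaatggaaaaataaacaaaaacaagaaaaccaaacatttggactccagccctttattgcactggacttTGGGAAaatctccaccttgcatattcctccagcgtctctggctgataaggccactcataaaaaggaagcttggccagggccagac
TGGGAA occurred on either strand in 10 of 16 enzyme promoters (62.5%) and in 20.9% of all 12674, and CANNTG in 13 of 16 (81.2%) against 59.9%. Prss2 was lower by 0.39 ± 0.10 and Cela2a by 0.40 ± 0.10 in the deposited values, and both turned above 0 after cyclic loess scaling.

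Ptf1a, the acinar subunit of that complex, read 12.07, 12.00 and 11.76 in controls and 11, 10.9 and 11.7 on low protein. Low protein array 3 stood next to the controls and the other two far below, with a difference of -0.75 ± 0.29 (adjusted p = 0.397). Xbp1, a secretory factor of the unfolded protein response, read 13.84, 13.37 and 13.83 against 13.00, 13.16 and 12.97, a difference of -0.64 ± 0.17 (adjusted p = 0.212), and -0.25 after cyclic loess. Gata4, a factor of foregut and pancreas development, was higher by 0.41 ± 0.15 (adjusted p = 0.354). Over all 8 acinar factors tested the median was -0.19, but -0.04 without control array 1 and -0.06 after cyclic loess.

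Zymogen granule and other acinar secretory proteins had a median of -0.44 over 17 tested, 8 of them lower and 1 higher at an unadjusted p under 0.05, and a median of -0.01 after cyclic loess. Tff2, a trefoil peptide that protects mucosa, read 14.81, 14.78 and 14.70 against 14.08, 14.15 and 14.07. The difference was -0.66 ± 0.16 (adjusted p = 0.209), and -0.16 after cyclic loess. Spink1, the trypsin inhibitor that guards against early activation, differed by -0.58 ± 0.15, and by -0.07 after cyclic loess. Itih4, an inter-alpha-trypsin inhibitor chain, ran the other way. It read 8.36, 8.47 and 8.30 in controls and 9.02, 8.92 and 9.16 on low protein, +0.66 ± 0.18 (adjusted p = 0.224), and +0.67 after cyclic loess.

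Among 15 duct cell genes the median was +0.04, and -0.06 without control array 2. Aqp1, a water channel of ducts and also of capillaries, read 8.44, 8.88 and 8.48 against 7.99, 8.03 and 7.97, with no overlap and a difference of -0.60 ± 0.13 (adjusted p = 0.209). Epcam, an epithelial adhesion molecule, differed by +0.36 ± 0.14 with overlap.

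The ribosomal protein transcripts tested were lower almost throughout, though by less after cyclic loess scaling. The list held 60 genes, of which 36 had a probe set with a single symbol. Those tested had a median signal of 13.47, in the brightest class of genes. In that class 24.4% of genes were lower at an unadjusted p under 0.05 and 29.9% lower without overlap. Of 35 tested, 34 had a negative difference, 24 were lower at an unadjusted p under 0.05 and 26 did not overlap, with a median of -0.61. After cyclic loess scaling the median was -0.15, 30 were below 0 and 11 had an unadjusted p under 0.05. Rpl13a, of the large subunit, read 13.75, 14.07 and 13.99 in controls and 13.23, 12.97 and 12.94 on low protein. The groups were apart by -0.89 ± 0.18 (adjusted p = 0.209), and the 4 probe sets of the gene ran from -0.56 to -0.89. Rps14, of the small subunit, read 14.46, 14.84 and 14.72 against 14.06, 13.94 and 13.82, a difference of -0.73 ± 0.17. Rpl22 differed by -0.84 ± 0.17. Ribosomal proteins have many pseudogene copies, so the probes of this family may read more than 1 transcript.

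Subunits of the mitochondrial respiratory chain were likewise lower for the most part, also after cyclic loess scaling. Their median signal was 11.40, in the brightest class of genes. In that class 24.4% of genes were lower at an unadjusted p under 0.05 and 29.9% lower without overlap. Of 38 tested, 36 had a negative difference, 21 were lower at an unadjusted p under 0.05 and 21 did not overlap, with a median of -0.37, or -0.25 after cyclic loess with 15 at p under 0.05 and -0.32 with 11 under the hybridisation control covariate. Ndufb9, of complex I, read 12.50, 12.60 and 13.01 against 12.04, 11.71 and 11.74, without overlap, a difference of -0.87 ± 0.19 (adjusted p = 0.209). All 3 of its probe sets were lower at an unadjusted p under 0.05. Cox5a, of cytochrome oxidase, read 12.55, 12.55 and 12.60 against 12.03, 11.84 and 11.69, a difference of -0.71 ± 0.18. Atp5pb, of ATP synthase, differed by -0.76 ± 0.18. Mff, which recruits the fission machinery to mitochondria, read 11.20, 11.24 and 11.23 against 10.81, 10.59 and 10.44, a difference of -0.61 ± 0.11 (adjusted p = 0.206). Ppargc1a, the coactivator that drives mitochondrial biogenesis, was instead higher, by 0.31 ± 0.12 (adjusted p = 0.376), in a list of 16 biogenesis and dynamics genes with a median of -0.04.

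**Figure D3:**
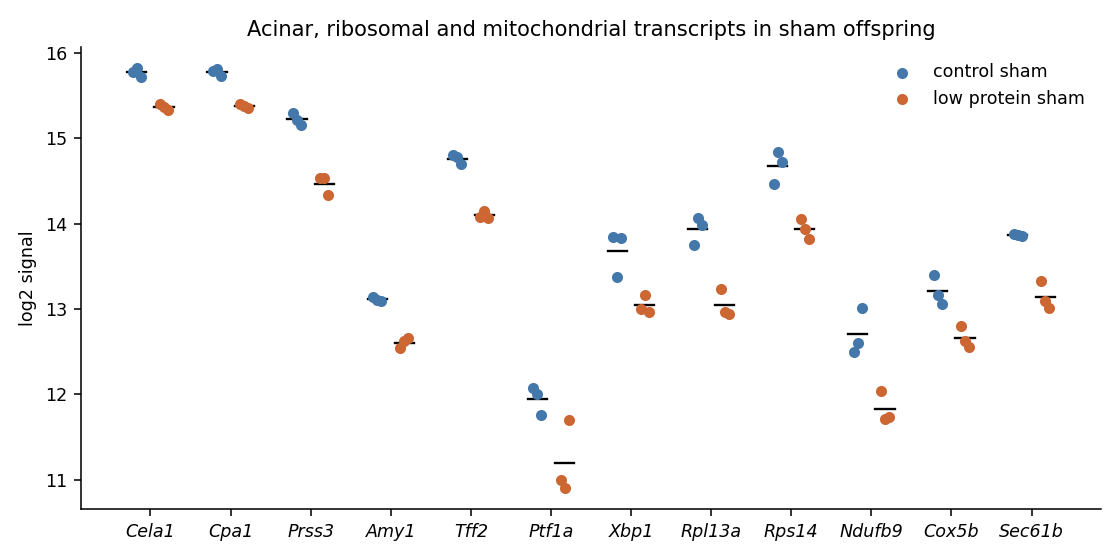
Log2 signal of 12 acinar, ribosomal, mitochondrial and secretory pathway genes on the control sham (blue) and low protein sham (orange) arrays, with a black bar at each group mean. The 3 controls lie above the 3 low protein arrays in each gene, closely for Ptf1a, at 11.76 in the lowest control and 11.70 in the highest low protein array.

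Genes of the endoplasmic reticulum and of the response to amino acid shortage differed less. The unfolded protein response list had a median of -0.21 over 26 tested with 3 lower at an unadjusted p under 0.05, and the median was +0.05 after cyclic loess, -0.07 with the hybridisation control covariate and -0.11 without low protein array 2. Sec61b, of the protein translocation channel, read 13.88, 13.87 and 13.86 against 13.33, 13.10 and 13.01, a difference of -0.73 ± 0.19, and -0.325 after cyclic loess. Its controls were almost equal and the low protein arrays all lower. Dnajb9, an ER co-chaperone, differed by -0.72 ± 0.26, and by -0.58 after cyclic loess.

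The amino acid response list, mostly targets of the factor ATF4, had a median of -0.20 over 28 tested, with 3 lower and none higher at an unadjusted p under 0.05. The median was -0.06 after cyclic loess, -0.09 without control array 1 and -0.11 without low protein array 2, and with the hybridisation control covariate none of the 28 had such a p. Psat1, an enzyme of serine synthesis, read 10.72, 10.62 and 10.66 in controls and 10.00, 8.85 and 10.31 on low protein, with array 2 far below the other two. The difference was -0.94 ± 0.41 (adjusted p = 0.467), and -0.51 without that array. Asns, asparagine synthetase, differed by -0.53 ± 0.23 and Eif4ebp1, a repressor of cap-dependent translation, by -0.46 ± 0.17. Of 22 amino acid transporters none had an unadjusted p under 0.05, and none passed after adjustment in limma.

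Antioxidant genes held 8 lower and none higher at an unadjusted p under 0.05 among 20 tested. Their median was -0.19, or -0.09 without control array 1 and -0.14 after cyclic loess. Prdx4, the peroxiredoxin of the secretory pathway, read 14.26, 14.07 and 14.41 against 13.66, 13.37 and 13.43. The difference was -0.76 ± 0.20 (adjusted p = 0.212), and -0.33 after cyclic loess. Gpx4, which reduces lipid peroxides, differed by -0.55 ± 0.14, and by -0.41 after cyclic loess. Nfe2l2, the transcription factor NRF2 that drives many of these genes, read 8.86, 8.55 and 8.90 against 8.05, 8.21 and 8.02, a difference of -0.67 ± 0.14, but its second probe set differed by +0.21.

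**Figure D4:**
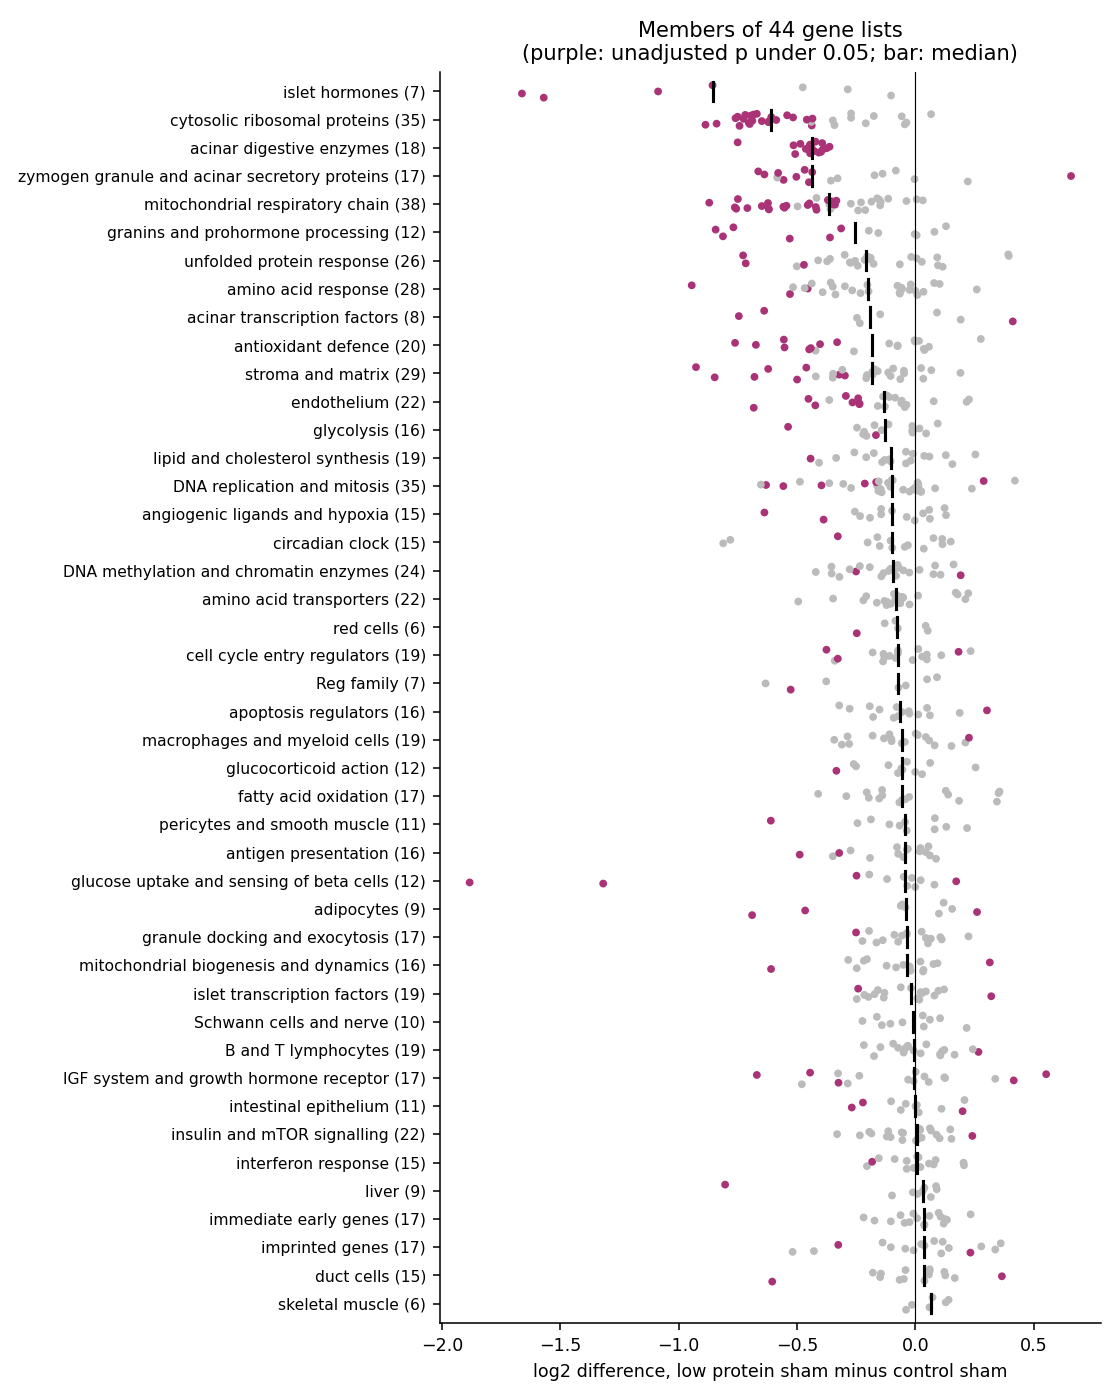
Log2 difference, low protein sham minus control sham, of each tested member of 44 gene lists, in purple where the unadjusted p was under 0.05 and in grey otherwise, with a black bar at the list's median and the number tested in parentheses. Islet hormones (median -0.86), ribosomal proteins (-0.61), digestive enzymes (-0.44), zymogen granule and acinar secretory proteins (-0.44) and the respiratory chain (-0.37) lie furthest left of 0. The medians of the other lists run from -0.26 (granins and prohormone processing) to +0.07 (skeletal muscle).

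Endothelial genes were lower in part. Of 22 tested, 8 were lower and none higher at an unadjusted p under 0.05 and 9 did not overlap, with a median of -0.13 that was the same after cyclic loess. Ptprb, a phosphatase of vessel walls, read 9.24, 9.18 and 8.86 against 8.79, 8.51 and 8.61, a difference of -0.45 ± 0.11 (adjusted p = 0.209). Kdr, the main VEGF receptor, read 10.34, 10.21 and 10.12 against 9.96, 9.97 and 9.95, a small difference of -0.27 ± 0.08 with nearly equal low protein arrays. Cd34, a surface marker of vessels and progenitors, differed by -0.68 ± 0.20 and Flt1, another VEGF receptor, by -0.24 ± 0.08. The defining markers Pecam1 and Cdh5, both junction proteins, differed by -0.06 and -0.05 with overlap. Among 15 angiogenic and hypoxia genes, Angpt1, a ligand that steadies vessels, differed by -0.39 ± 0.10 and Epas1, the factor HIF-2 alpha, by -0.64 ± 0.22, and no other had an unadjusted p under 0.05.

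Stroma and matrix genes had a median of -0.18 over 29 tested with 8 lower at an unadjusted p under 0.05, and -0.06 without control array 3. Col3a1, a fibrillar collagen, read 12.56, 12.80 and 13.49 against 12.37, 12.16 and 11.78, with that control well above the rest and a difference of -0.85 ± 0.28. Bgn, the matrix proteoglycan biglycan, differed by -0.50 ± 0.13 and Timp3, a metalloproteinase inhibitor, by -0.46 ± 0.15.

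The insulin-like growth factor system had members on both sides, 3 lower and 2 higher at an unadjusted p under 0.05 of 17 tested. Igfbp4, an inhibitory IGF binding protein, read 11.73, 11.93 and 12.27 in controls and 11.69, 11.22 and 11.02 on low protein, a difference of -0.67 ± 0.17 (adjusted p = 0.209). All 6 of its probe sets were below 0, from -0.04 to -0.67. Igfbp5, another binding protein, read 11.91, 12.17 and 12.60 against 12.94, 12.65 and 12.75, a difference of +0.55 ± 0.15 (adjusted p = 0.214), but its second probe set differed by -0.64. Igf1 differed by -0.33 ± 0.13 with overlap and Igf2bp1, an RNA-binding protein of growing tissue, by +0.41 ± 0.15.

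Replication and mitosis genes had a median of -0.10 over 35 tested, with 5 lower and 1 higher at an unadjusted p under 0.05, and a median of +0.01 without control array 1. With the hybridisation control covariate 13 were lower. Mcm5, of the replicative helicase, read 9.89, 8.64 and 9.11 in controls and 8.80, 8.55 and 8.40 on low protein, a difference of -0.63 ± 0.25, or -0.29 without control array 1. Mcm2 and Mcm4, of the same helicase, differed by -0.56 ± 0.22 and -0.40 ± 0.15, with control array 1 highest in both. Top2a, the topoisomerase of dividing cells, differed by +0.29 ± 0.10. Peg3, an imprinted gene of growth control, read 9.56, 9.83 and 9.54 against 9.37, 9.33 and 9.25, a difference of -0.33 ± 0.09 (adjusted p = 0.224), among 17 imprinted genes with a median of +0.04. The adipocyte transcripts Fabp4, a fatty acid carrier, and Lpl, a lipase, differed by -0.69 ± 0.20 and -0.47 ± 0.19, and Lipe, the hormone-sensitive lipase, by +0.26 ± 0.11 with overlap. These were the 3 with an unadjusted p under 0.05 in a list of 9 with a median of -0.04, or +0.06 after cyclic loess, and the defining marker Adipoq read 5.96 in both groups. Lists for lymphocytes, macrophages, interferon response, nerve, intestine, red cells and skeletal muscle had medians of -0.08 to +0.07.

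Vamp3, a vesicle fusion protein, had the smallest p of all genes. It read 11.61, 11.71 and 11.48 in controls and 10.8, 11 and 10.97 on low protein, -0.68 ± 0.09 (adjusted p = 0.206). All 5 of its probe sets were below 0, 4 of them at an unadjusted p under 0.05. Jcad, a junction protein of endothelium, differed by -0.65 ± 0.10, but its second probe set by +0.12. Myadm, a membrane protein, differed by -0.69 ± 0.11 and Basp1, a signalling protein of the membrane, by -0.60 ± 0.11. With array weights Vamp3, Jcad, Myadm, Basp1 and G6pc2 each had an adjusted p of 0.0497.

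Among the largest positive differences, other probe sets of the same gene gave smaller values. Vat1, a membrane protein of vesicles, read 10.52, 10.28 and 11.27 in controls and 12.29, 11.84 and 11.90 on low protein, a difference of +1.32 ± 0.23 (adjusted p = 0.206), while its other probe sets gave +0.15 and +0.49. Armc8, of an E3 ligase complex, read 12.33, 12.36 and 13.03 against 13.81, 13.59 and 13.85, a difference of +1.18 ± 0.20, and its 4 other probe sets gave -0.07 to -0.01. Hoxa5, a developmental regulator, differed by +1.17 ± 0.24 and its other probe set by +0.05. Gss, glutathione synthetase, differed by +0.81 ± 0.16 and its other probe set by +0.01. In Vat1, Armc8, Hoxa5 and Gss the third control lay nearest to the low protein arrays, and without it these 4 genes had adjusted p-values of 0.0244 to 0.0274.

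Probe sets with the suffix _x_at or _s_at can match more than 1 transcript. Those used for Vat1, Hoxa5 and Gss had such a suffix. So did those used for Ins2, Vamp3, Mff, Myadm and Psat1, which were lower. Slc5a9, a sugar cotransporter, differed by +0.95 ± 0.20 and its 3 other probe sets by +0.02 to +0.10. For the 10 largest positive differences, 11 of 22 further probe sets ran the same way and 1 of them had an unadjusted p under 0.05. For the 10 largest negative ones, 13 of 14 did and 9 had such a p. The 22 belonged to 9 genes and the 14 to 6. Of the 14, the gene Ran held 5 and Iapp 3, with 4 and 3 at such a p, while Cltrn, G6pc2, Gcg and Ins2 had no further probe set. Over the genes lower at an unadjusted p under 0.05, 72.1% of further probe sets above the lower limit were lower, against 55.9% over all genes. Over the genes higher at that p, 51.8% were higher, against 44.1% over all genes. Of 9012 genes with 2 or more probe sets, 71 had an unadjusted p under 0.05 in 1 direction for all of them. Of these 71, 65 were lower and 6 higher, counted in the deposited values only. Over all genes tested, by their brightest probe set, 1147 were lower and 508 higher at that p, or 812 and 734 after cyclic loess scaling.

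**Figure D5:**
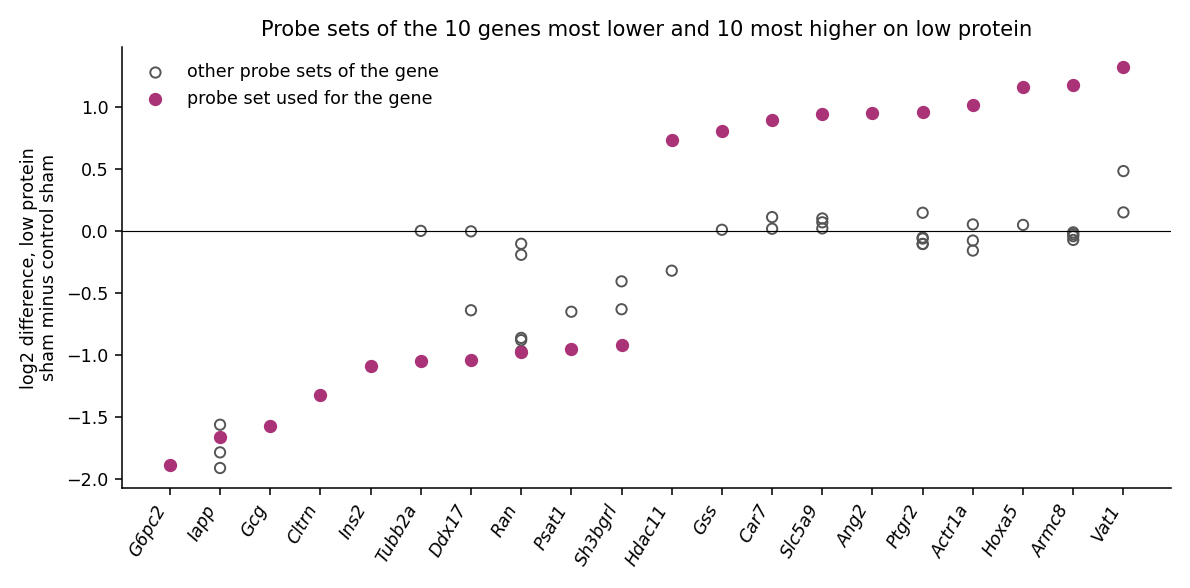
Log2 difference, low protein sham minus control sham, of the probe set used for each gene (filled) and of the gene's other probe sets (open), for the 10 genes with the most negative and the 10 with the most positive difference among those without overlap. Iapp's probe sets lie together at -1.56 to -1.91, while Armc8's other probe sets lie at -0.07 to -0.01 against +1.18.

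The same diet contrast on the separate STZ arrays gave values to set beside those of the sham offspring. Across all genes the diet difference correlated between sham and STZ offspring at a Pearson r of 0.478, as a description over genes that share these arrays' scaling. Of the genes lower at p under 0.05 in sham offspring, 86.6% were also lower after STZ, against 62.3% of all genes, and of those higher in sham 77.8% were also higher, against 37.7%. Without low protein STZ array 1 these shares were 80.2% against 59.5% and 71.5% against 40.3%. That array stood apart at the upper end, with 14 probe sets above a signal of 15 against 40 to 51 on the other STZ arrays.

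The digestive enzymes had a median of -0.38 after STZ, but -0.23 without that array and +0.38 after cyclic loess. The ribosomal proteins had a median of -0.67, or -0.43 without the array and -0.12 after cyclic loess. The respiratory chain had a median of -0.55, or -0.38 without the array and -0.26 after cyclic loess.

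The islet transcripts differed little by diet after STZ. The hormones had a median diet difference of -0.09 there, and +0.22 after cyclic loess. Iapp read 12.72 and 12.40 in control STZ pancreas and 12.15, 12.76 and 12.51 in low protein STZ pancreas, so that both groups stood near the level of low protein sham offspring. G6pc2 read 6.81 and 6.62 against 7.18, 7.11 and 7.02, with the low protein arrays above the controls, which lay below the lower limit of 6.866.

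The difference of the diet effects, STZ minus sham, was tested in the same model. No gene passed after adjustment in limma, 214 genes were positive (1.35%) and 352 negative (2.21%) at an unadjusted p under 0.05. G6pc2 had a difference of the diet effects of 2.28 ± 0.44 and Iapp of 1.58 ± 0.52 (adjusted p = 1 for both in limma).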

How the data were processed

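RNA of whole pancreas was hybridised to Affymetrix mouse arrays. What the authors deposited is 1 log2 signal for each probe set and array. Per the submitters' processing notes, RMA and Partek 6.5 were used, with no role or order named, and no other step is given. The number of arrays limits the precision. Probe sets were named from the platform annotation: 34958 had 1 symbol, 932 several and 9211 none, and each gene took its brightest probe set. Genes whose mean lay below the lower quartile of probe set means (6.866) were left out. limma 3.58.1 in R 4.3.3 (lmFit, eBayes) fitted 1 mean per group over all 11 arrays, two-sided, with Benjamini-Hochberg adjustment over 15897 genes at a threshold of 0.05. On data simulated for low protein against control sham over 15897 genes, the same code recovered 90% of 2-fold and 71% of 1.5-fold changes. Recovery meant an adjusted p under 0.05. The simulated noise was drawn independently for each gene, without differences shared across an array. These shares therefore check the code and do not measure how many real changes the arrays could show.

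Genes were named as cell type markers, as the 12 higher and 12 lower with the smallest p, as the 10 largest differences each way without overlap, as up to 6 members of each of 44 lists, where probe sets agreed, or for the difference of diet effects. The members, lists and tests were chosen with earlier results of these data known. Alternatives covered the arrays in the fit, a replicate block, scaling, filter, probe sets, moderation, array weights, control covariates and each sham array left out.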

Additional observations from a re-analysis of the deposited data

Results flagged for a closer look

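The difference of the diet effects for G6pc2, STZ minus sham, was 2.28, because every low protein array lay below the controls in sham offspring and above them after STZ. The control STZ arrays, at 6.81 and 6.62, lay below the lower limit for testing of 6.866, so the part after STZ compares dim signals.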

How the results depend on the processing

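The count of genes past the adjusted threshold was 0 as reported and 7 with array weights, while 198 genes combined an unadjusted p under 0.05 with at least a 1.5-fold difference. Leaving out 1 sham array gave 0 to 8 genes: 1 without control array 1 (Basp1), 3 without control array 2, G6pc2 among them, and 8 without control array 3, all higher. The count at an unadjusted p under 0.05, 1655, was 1190 to 2038 when 1 array was left out and 3204 over 34958 probe sets tested singly. The count for the difference of the diet effects, 566, was 1013 with array weights, 1284 over single probe sets and 412 to 852 with 1 array left out, and 0 passed after adjustment in limma in each of these fits.

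The median of the digestive enzymes was 0.178 after cyclic loess scaling and -0.333 with the hybridisation control covariate, and that of the ribosomal proteins -0.153 and -0.471. Cpa1 and Prss2 turned to 0.241 and 0.24 after cyclic loess. Cdh5 and Pecam1, both near 0, changed sign in some settings, with Cdh5 at 0.012 under array weights and -0.136 to 0.068 with 1 array left out, and Pecam1 at -0.122 to 0.004. Why the scaling changes these was not tested. In the added fits of the STZ arrays, chosen after seeing the data, the diet median after cyclic loess turned to 0.217 for the hormones and 0.377 for the digestive enzymes. In sham offspring the islet hormone median kept its sign in each setting run, from -0.636 (cyclic loess) to -1.323 (every probe set). The latter also counts 3 further probe sets of Iapp, so that this gene weighs more there. Among the other settings the largest median was -1.131, without low protein array 1.

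Replicate numbers are shared by the diets but nothing in the labels pairs them. Deviations of same-numbered arrays correlated at 0.091, 0.176 and 0.123, against -0.136 to 0.017 for other pairs. Each array thus correlated best with its own number. Deviations of 3 arrays from their own mean sum to 0, so these values are tied to each other and do not show a pairing. With the replicate block, 0 genes passed the adjusted threshold and 1636 had an unadjusted p under 0.05.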
